A study of Mus musculus with 7 samples.

Results

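Cells that express the Notch ligand Dll1 and little of the surface protein CD24 were compared with Lgr5 stem cells of the mouse intestine. The comparison rests on 3 of the 7 arrays of the study: 2 arrays of GFP-high, CD24 low cells from Dll1-EGFP-ires-CreERT2 mice, and the 1 array of GFP-high cells from Lgr5-EGFP-ires-CreERT2 mice. They were chosen by their sample titles alone. In both lines GFP reports the promoter of the named gene, so the first group was defined by the Dll1 promoter and by CD24, and the second by the Lgr5 promoter, with no CD24 level given. The other 4 arrays hold Dll1 cells with medium or high CD24, 2 of each. The submitters call the Dll1 samples biological replicates, but the labels do not give the number, age, sex or treatment of the mice. Each sample carried Cy3 and was hybridised with Cy5-labelled RNA of whole small intestine, a reference that all 7 arrays share. A level in the text is therefore the log2 ratio of sample over that reference, and a difference is CD24 low minus Lgr5 on the same scale. A ratio cannot tell fewer cells of a type from less of a transcript per cell.

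As background, Lgr5 marks the columnar cells at the crypt base, which divide under Wnt signals from their surroundings and give rise to every epithelial cell type of the intestine. Daughter cells that escape Notch signalling switch on Atoh1 and the ligand Dll1 and enter the secretory lineage, which yields goblet, Paneth, enteroendocrine and tuft cells. Goblet cells make the gel-forming mucin Muc2, a heavily glycosylated protein that passes in large amounts through the endoplasmic reticulum (ER) and the Golgi apparatus before it is stored in granules.

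On the 3 arrays, 52.8% (Lgr5), 56.4% and 60.5% (CD24 low, replicates 1 and 2) of gene spots stood well above background in the sample channel, and no gene spot was saturated there. The CD24 low arrays correlated with each other across genes at r = 0.91, and with the Lgr5 array at 0.607 and 0.579. The Lgr5 array lies on another slide than both CD24 low arrays, and it comes from another mouse line, so slide, line and cell type cannot be told apart from these 3 arrays alone. Lgr5 has no replicate: its spread is assumed to be that of the Dll1 groups, and with so few arrays the precision of any value is limited.

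A gene was called where the adjusted p of limma, fitted on all 7 arrays, was under 0.05 and both CD24 low arrays lay on the same side of the Lgr5 array. Of 17050 genes tested, 2154 were higher in CD24 low cells (12.6%) and 1852 were lower (10.9%), and 0 genes past the p threshold failed the rule on sides. The median difference over all genes was 0.08. With the slide as a term, which can be estimated only through the CD24 medium and high arrays, 997 genes were higher and 536 lower, 918 and 513 of them among the genes of the main fit. Of the genes called, 53.8% were higher, and 38.5% were when the sample channel was used without the reference. Genes of 21 lists, described next by role, are set against those background shares.

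**Figure D1:**
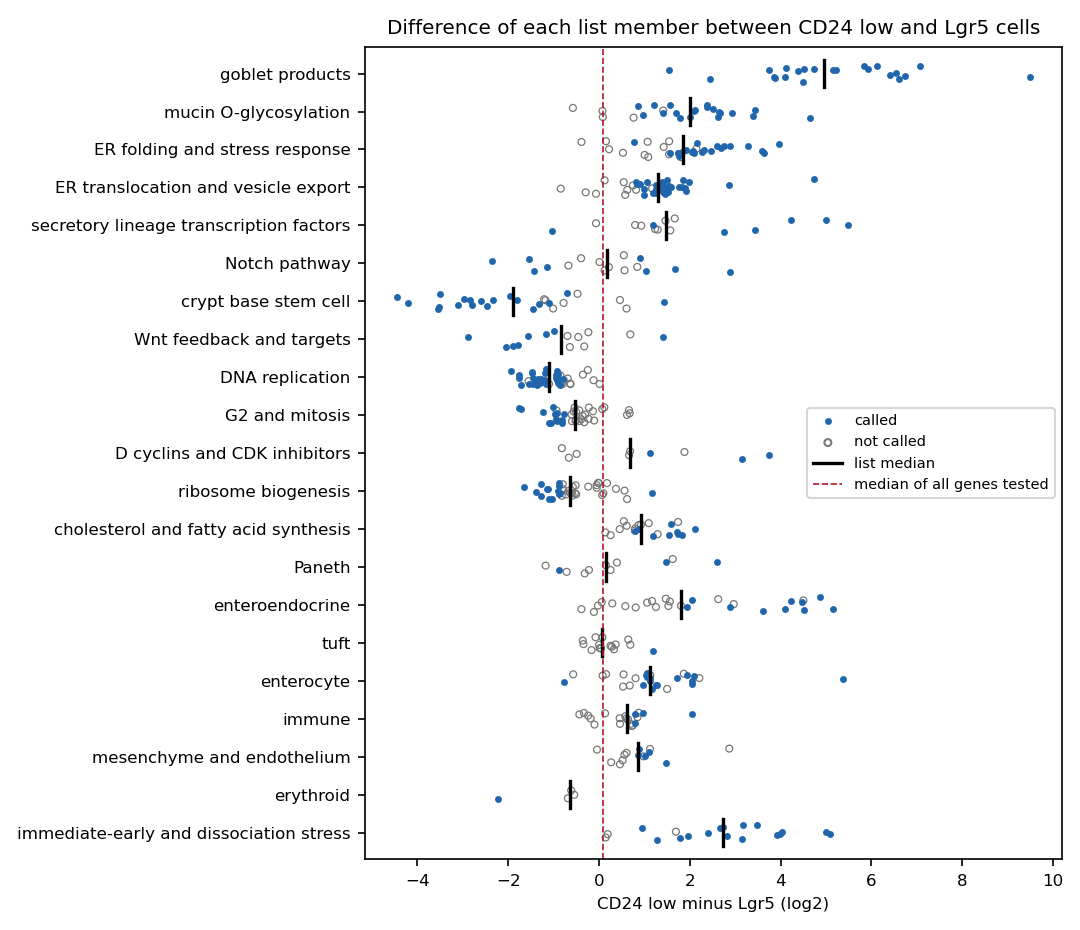
Difference between CD24 low and Lgr5 cells (x axis, log2, CD24 low minus Lgr5) of each measured gene of 21 lists (rows). Filled points are called genes, open points are not called, black bars are list medians and the dashed line is the median of all genes tested, 0.08; the goblet list lies wholly to the right, with its median at 4.94, and the stem cell and DNA replication lists mostly to the left, at −1.89 and −1.10.

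The genes that chose the cells were checked before the rest. Dll1 stood at 2.56 and 2.52 in CD24 low cells against 0.88 in Lgr5 cells, a difference of 1.67 (SE 0.30, adjusted p = 0.0115). Lgr5, the receptor for R-spondin, stood at −1.23 and −0.75 against 2.51, a difference of −3.50 (SE 0.24, adjusted p = 0.000701). Both lie on the side their sort predicts, which describes the sort and is no finding. Cd24a, which encodes CD24, stood at −0.68 and −0.59 in CD24 low cells and at −0.11 in Lgr5 cells, and the difference of −0.53 was not called (adjusted p = 0.0854).

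Goblet products were much higher in CD24 low cells. All 22 genes of the list were measured and all 22 were higher, against 12.6% of all genes tested, with differences from 1.54 to 9.50 and a median of 4.94. Like the other lists, this one was written with earlier results of these data known, so the full count is not an independent test. The largest difference of any gene tested belonged to Clca1, a secreted component of intestinal mucus (probe at chr3:144667558-144667617, mm9). Its level was 4.29 and 2.33 on the CD24 low arrays and −6.19 on the Lgr5 array, a difference of 9.50 (SE 1.50, adjusted p = 0.00797). The CD24 low mean was 3.31 ± 1.39 (SD, n = 2). A call in this comparison itself requires both CD24 low arrays on one side of the Lgr5 array.

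Muc2 itself (probe at chr7:148940000-148940059) had levels of 2.94 and 2.35 against −3.96, a difference of 6.60 (SE 0.37, adjusted p = 0.000376). Its further probes gave smaller differences, from 3.84 to 4.44, in the same direction. Zg16, a lectin that binds bacteria in the mucus, stood at 3.19 and 1.29 against −4.84. Fcgbp, a large protein cross-linked into the mucus gel, stood at 3.73 and 3.07 against −3.33, a difference of 6.73 (adjusted p = 0.000317).

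Agr2 is a disulphide isomerase of the ER needed to make Muc2, and its levels were 4.03 and 3.72 against −2.66 (difference 6.54, adjusted p = 0.000287). Tff3, the trefoil peptide that goblet cells secrete with mucin, stood at 4.14 and 3.45 against −2.13 (difference 5.93). Bcas1 and Rep15 followed at differences of 6.41 and 6.11, and a further probe of Bcas1 gave 3.80. Outside the list, the largest differences were those of Scin, an actin-severing protein (6.60), Kcnk6, a potassium channel subunit (6.40), S100a6, a calcium-binding protein (5.92), and Rgs2, a regulator of G protein signalling (5.89). The further probe of Rgs2 gave 1.49, so the size of that difference depends on the probe.

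**Figure D2:**
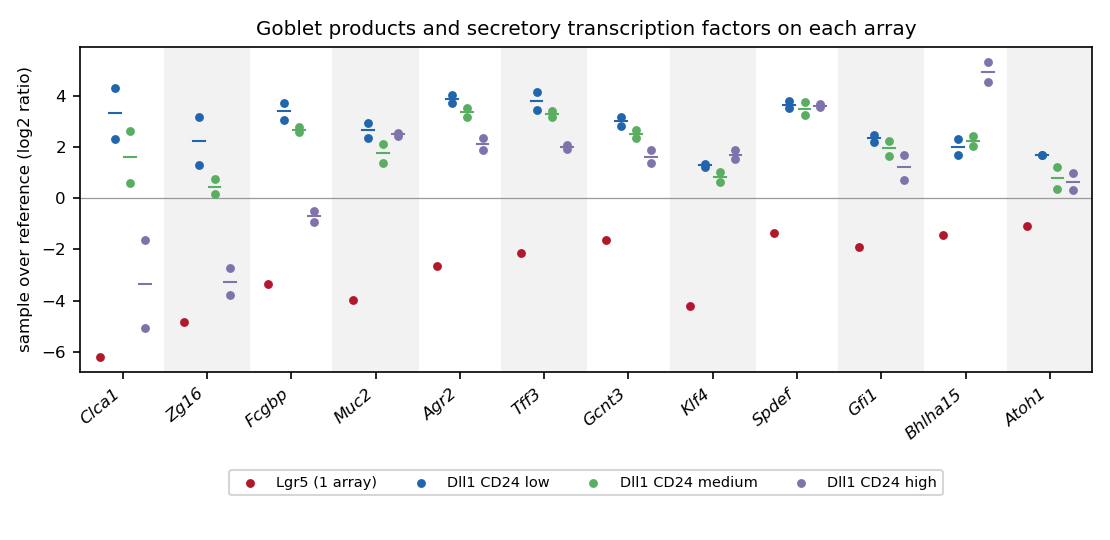
Level of 12 goblet products and secretory transcription factors (x axis) as the log2 ratio of sample over reference (y axis) on each of the 7 arrays. Points are arrays, short bars are means of the 2 replicates; in every gene shown the Lgr5 point lies below both CD24 low points, as for Muc2 at −3.96 against 2.35 and 2.94.

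Enzymes that attach and extend the sugars of mucins were higher as well. Of 30 listed genes 25 were measured, 20 of them were higher and none was lower, with a median difference of 2.00. That is 80% higher, against 12.6% of all genes tested. Gcnt3, which branches the mucin core, had levels of 3.16 and 2.83 against −1.65, a difference of 4.64 (SE 0.29, adjusted p = 0.000462). Galnt12 and Galnt5, which add the sugar that starts each O-linked chain, differed by 3.44 and 2.94, and B3galt5, a galactosyltransferase, by 3.40. Further starters of such chains were not called (chosen after their values were seen): Galnt2 differed by 0.08. Fut2 and B3gnt7, also outside the naming rule, were called, but were not well above background on the Lgr5 array.

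Of 16 listed transcription factors of the secretory lineage 15 were measured, with a median difference of 1.46. Higher were 6 (40%) and lower was 1 (6.67%), against 12.6% and 10.9% of all genes tested. Klf4, which goblet cells need to mature, stood at 1.35 and 1.24 against −4.20, a difference of 5.49 (SE 0.25, adjusted p = 0.000287). Spdef, which drives goblet and Paneth cell maturation, stood at 3.79 and 3.52 against −1.34 (difference 4.99, adjusted p = 0.000353). Atoh1, the factor that opens the secretory programme, stood at 1.67 and 1.67 against −1.08 (difference 2.75, adjusted p = 0.00623). With the sample channel used without the reference, Atoh1 differed by 1.98 and was not called (adjusted p = 0.0514).

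Gfi1, a repressor downstream of Atoh1, differed by 4.23 and Bhlha15, a factor that enlarges the secretory apparatus, by 3.43, although a further probe of Bhlha15 gave 0.80. The remaining called members were named after their values were seen: Foxa1 was higher by 1.19, and Sox9, which is active in crypt base and Paneth cells, was lower by 1.04 (a difference of −1.04, adjusted p = 0.0456). The call of Sox9 ended under several settings, among them the slide as a term and the loss of either CD24 low array. Without CD24 low replicate 1 the count of higher factors was 10. Neurog3, the factor that starts the enteroendocrine branch, had a difference of 1.57 and was not called.

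Genes of ER protein folding and of the unfolded protein response, the signalling that enlarges the ER when its load grows, were called higher for 23 of 35 measured members and lower for none, with a median difference of 1.84. The share higher was 65.7%, against 12.6% of all genes tested. Pdia5, a disulphide isomerase, led with levels of 2.67 and 2.98 against −1.14 (difference 3.97, adjusted p = 0.000836). Qsox1, which forms disulphide bonds in secreted proteins, differed by 3.59, Txndc5, another isomerase, by 3.29, and Creb3l4, a membrane-bound transcription factor of the ER, by 3.63. The ER stress sensor Ern1 had a difference of 0.22 and was not called, while the goblet list's Ern2, its epithelial relative, was higher by 4.75; both were picked after their values were seen.

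Genes of translocation into the ER and of vesicle export were higher for 30 of 40 members (75%) and lower for none. Of all genes tested 12.6% were higher. The list's median was 1.30. Kdelr3, a receptor that returns escaped chaperones to the ER, stood at 2.40 and 2.35 against −2.36, a difference of 4.73 (SE 0.18, adjusted p = 0.000287). Sec24d, a cargo adaptor of the vesicle coat that leaves the ER, differed by 2.87, Kdelr2 by 1.97 and Sec61b, part of the translocation channel, by 1.91.

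Promoters of some of these members hold response elements of the unfolded protein response. Shown, as the 140 bases before the start of transcription (RefSeq, GRCm38.p6), are called members whose match lies in those bases. They were taken by the size of their difference. The folding genes with the largest differences, Pdia5, Creb3l4, Qsox1 and Txndc5, are not among them. Members were matched by symbol: 31 of the 35 folding genes had 36 windows, each from 250 bases before to 50 after the start. The ER stress element, a spaced pair of motifs bound by NF-Y and ATF6 and known here by its name, occurred in 10 of those 36 windows (27.8%), and in 0.135% of the 14080 windows of genes tested. Both strands were searched. The element stands in capitals in Syvn1, Hspa5, Pdia6 and Dnajc3, and begins 44, 65 and 98 bases before the start in the first genes, and farther upstream in Dnajc3.
Syvn1 (chr19:6046436-6046575, + strand): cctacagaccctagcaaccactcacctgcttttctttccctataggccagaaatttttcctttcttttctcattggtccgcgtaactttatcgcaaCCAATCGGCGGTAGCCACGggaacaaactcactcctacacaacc
Hspa5 (chr2:34771950-34772089, + strand): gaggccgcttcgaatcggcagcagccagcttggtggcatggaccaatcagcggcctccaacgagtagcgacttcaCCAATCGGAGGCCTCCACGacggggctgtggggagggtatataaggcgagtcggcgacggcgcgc
Pdia6 (chr12:17266449-17266588, + strand): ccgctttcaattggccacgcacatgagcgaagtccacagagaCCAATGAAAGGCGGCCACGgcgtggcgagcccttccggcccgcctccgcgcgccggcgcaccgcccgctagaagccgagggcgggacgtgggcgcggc
Dnajc3 (chr14:118937792-118937931, + strand): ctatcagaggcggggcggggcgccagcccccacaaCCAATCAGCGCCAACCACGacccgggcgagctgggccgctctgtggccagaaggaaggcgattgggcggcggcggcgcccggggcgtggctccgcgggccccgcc

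These genes, picked by their sequence and differences, encode a ubiquitin ligase of ER quality control (Syvn1), the main ER chaperone BiP (Hspa5), a disulphide isomerase (Pdia6) and a co-chaperone (Dnajc3). Their differences were 2.89, 2.46, 2.32 and 1.74. Hspa5 had levels of 1.94 and 1.41 against −0.78 and an adjusted p of 0.0412. A further probe of Syvn1 gave 0.27, and those of Pdia6 ranged from 0.20 to 2.69. Having the element did not go with a call in every gene: Canx, an ER lectin whose promoter window holds it too, had a difference of −0.39 and was not called.

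The motif TGACGTGG, the core of the element bound by XBP1 and ATF6, occurred in 4 of 33 windows of the export list (12.1%) and in 0.859% of windows of genes tested, on either strand. Kdelr3 and Sec24d, the members with the largest differences, hold it 30 and 26 bases before the start, and Copb1, a coat protein of vesicles that return to the ER, 28 bases before. The matched letters are in capitals, on the opposite strand in Kdelr3 and Copb1.
Kdelr3 (chr15:79516268-79516407, + strand): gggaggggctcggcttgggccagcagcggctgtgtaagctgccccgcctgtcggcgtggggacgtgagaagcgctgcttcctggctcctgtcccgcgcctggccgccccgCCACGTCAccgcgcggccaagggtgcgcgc
Sec24d (chr3:123267356-123267495, + strand): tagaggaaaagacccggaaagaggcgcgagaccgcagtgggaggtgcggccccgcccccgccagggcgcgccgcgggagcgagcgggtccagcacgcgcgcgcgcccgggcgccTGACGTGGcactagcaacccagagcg
Copb1 (chr7:114254681-114254820, - strand): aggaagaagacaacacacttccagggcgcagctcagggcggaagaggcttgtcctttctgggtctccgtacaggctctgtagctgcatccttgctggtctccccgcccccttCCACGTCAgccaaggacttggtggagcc

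Xbp1, the factor itself, stood at 0.53 and 1.14 against −1.85 (difference 2.68, adjusted p = 0.00256), a value picked after it was seen. A match of letters describes a window and was not tested as a site.

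Genes of the Notch pathway did not move as a group, with 4 higher and 4 lower of 16 measured (20 listed) and a median of 0.17. Each count is 25%, against 12.6% higher and 10.9% lower of all genes tested. Among ligands, Dll4 was higher like Dll1, with levels of 2.81 and 3.25 against 0.14, a difference of 2.89 (SE 0.39, adjusted p = 0.00468). Among receptors, Notch2 was lower, at −1.25 and −1.76 against 0.84 (difference −2.35, adjusted p = 0.0037), although a further probe gave −0.24. Nrarp, a target and feedback inhibitor of Notch, stood at −0.39 and −0.77 against 0.97 (difference −1.55, adjusted p = 0.00755).

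The other called members were named after their values were seen. The receptor Notch1 and the Notch target Hes5 were lower, with differences of −1.43 and −1.15. Notch4 was higher by 1.04. The effector Heyl was called higher but was not well above background on the Lgr5 array. That makes it at least 1.67-fold higher in the sample channel, with the dim array raised to its detection level if below it. Among the 13 members well above background on all 3 compared arrays, 3 were higher and 3 lower. Hes1, the best known Notch effector of the crypt, had levels of −0.37 and −0.30 against 0.06 and was not called.

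Genes of the crypt base stem cell were lower for 18 of 26 members, against 10.9% of all genes tested, and higher for 1, with a median difference of −1.89. Olfm4, a secreted glycoprotein of stem cells, stood at −1.72 and −1.12 against 3.04, a difference of −4.46 (SE 0.32, adjusted p = 0.000714), and its further probe gave −4.82. Scn2b, a sodium channel subunit, stood at −0.83 and −1.06 against 3.27 (difference −4.21), and Slc14a1, a urea transporter, at −1.50 and −1.12 against 2.24 (difference −3.55). In each, the Lgr5 array was the highest of the 7.

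Tnfrsf19, a Wnt target and member of the TNF receptor family, stood at −3.04 and −3.12 against 0.45 (difference −3.53, adjusted p = 0.000708). Ascl2, a transcription factor that keeps stem cell identity, had a smaller difference of −1.32 (0.55 and 0.29 against 1.74, adjusted p = 0.00822), and with the slide as a term its adjusted p was 0.0556. The member called higher was Phlda1, by 1.44, and with the slide as a term no member of the list was higher.

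Outside the lists, the most strongly lower genes included Cps1, the mitochondrial enzyme that feeds ammonia into the urea cycle (−0.81 and −0.69 against 3.04, difference −3.79), Slc1a3, a glutamate transporter (difference −3.70), and Dct, an enzyme of melanin synthesis (−3.54, with a further probe at −1.65). Jaml, an adhesion molecule, and Smarcd3, a chromatin remodelling subunit, had differences of −3.24 and −3.23. Cps1 was not called when the sample channel was used without the reference.

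Wnt feedback genes and targets were lower for 7 of 14 measured members (16 listed) and higher for 1, with a median of −0.85. These shares, 50% and 7.14%, compare with 10.9% and 12.6% of all genes tested. Among the 13 members well above background on all 3 compared arrays, 6 were lower and 1 higher, with a median of −0.64. Sp5, a direct target, stood at −3.15 and −3.24 against −0.32, a difference of −2.88 (SE 0.21, adjusted p = 0.000819). Cd44, an adhesion receptor of crypt cells, differed by −2.05, Axin2, the feedback inhibitor, by −1.89 and Myc by −1.78. Further probes of Cd44 ranged from −2.55 to −0.74 and those of Myc from −1.49 to −0.16. Prox1 was the member called higher, by 1.42, chosen after its value was seen. With the slide as a term 5 members were lower and 0 were higher.

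**Figure D3:**
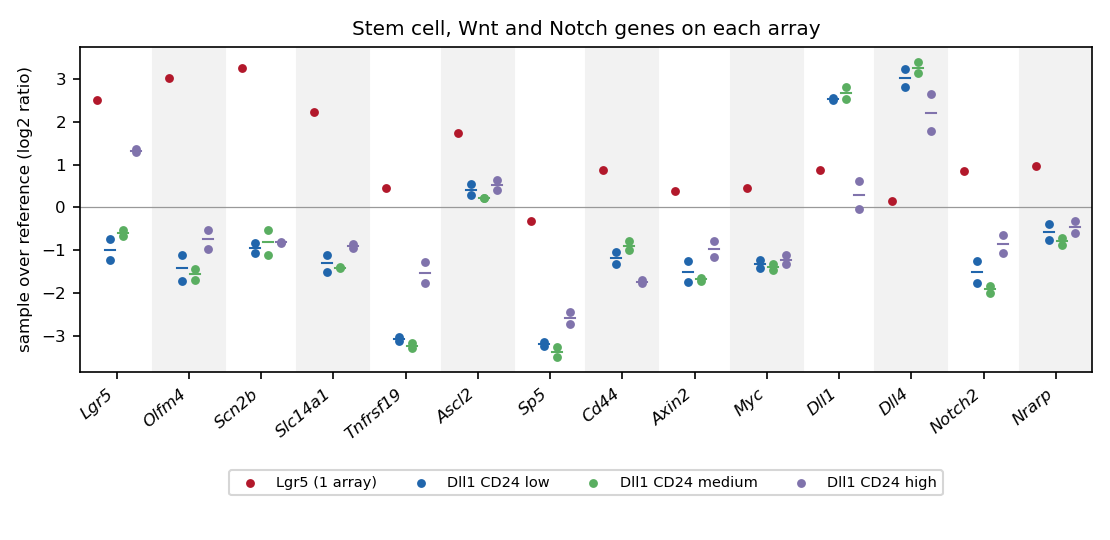
Level of 14 stem cell, Wnt and Notch genes (x axis) as the log2 ratio of sample over reference (y axis) on each array. Points are arrays and short bars means of the 2 replicates; for Lgr5, Olfm4, Sp5 and Axin2 the single Lgr5 point is the highest of the 7, and for Dll1 and Dll4 it lies below both CD24 low points.

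DNA replication genes were lower in CD24 low cells for 28 of 41 members (68.3%, against 10.9% of all genes tested) and higher for none. Of the 41 differences 40 were negative, with a median of −1.10. Uhrf1, which couples replication to DNA methylation, had levels of 0.78 and 0.76 against 2.71, a difference of −1.94 (adjusted p = 0.0132). Its call was lost with the slide as a term (adjusted p = 0.0506) and with the scanner's processed signals (0.0955). Gins1, part of the replicative helicase, differed by −1.76, Chaf1b, which places histones on new DNA, by −1.76, and Prim1, the primase subunit, by −1.72. Further probes of Uhrf1 and Gins1 gave −1.59 and −1.03. The count was 17 without CD24 low replicate 2 and 9 with the slide as a term.

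Genes of G2 and mitosis had smaller differences: 13 of 36 measured members (37 listed) were lower, none was higher, and the median was −0.53. Lower were thus 36.1%, against 10.9% of all genes tested. Pbk, a mitotic kinase, had levels of −0.59 and −0.82 against 1.06 (difference −1.76, adjusted p = 0.00304), and Ect2, which positions the division furrow, −0.12 and −0.65 against 1.33 (difference −1.72). A further probe of Ect2 gave −0.38. Nuf2, a kinetochore protein, differed by −1.24 and Nusap1, a spindle protein, by −1.11. Mki67, the proliferation antigen, stood at 0.56 and 0.36 against 0.39 and was not called (difference 0.07, SE 0.31). The sign of that difference changed between settings, and a further probe of Mki67 gave 0.999. With the slide as a term 3 members were called lower, and 6 with the scanner's processed signals.

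**Figure D4:**
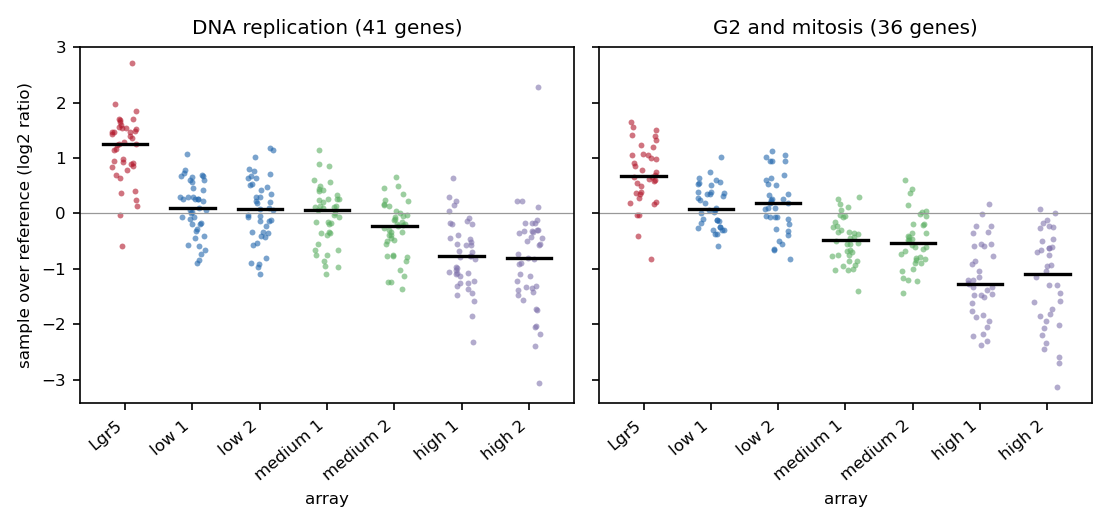
Level of the 41 DNA replication genes (left) and the 36 G2 and mitosis genes (right) as log2 ratios of sample over reference (y axis) on each array (x axis). Points are genes and black bars medians; the replication median is 1.26 on the Lgr5 array and 0.10 and 0.09 on the CD24 low arrays, and the mitosis median is 0.68 against 0.08 and 0.19.

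Promoter windows of both lists hold the motifs known for their phase. Shown are 2 called members of each list, taken by the size of their difference among those with a match in the printed bases. The cell cycle homology region, searched as TTTGAA on both strands, occurred in 23 of 31 windows of the G2 and mitosis list (74.2%) and in 12.7% of windows of genes tested. Sites for E2F, searched as TTTGGCGC, TTTCCCGC or TTTGGCGG on both strands, occurred in 15 of 39 windows of the replication list (38.5%) and in 3.36% of windows of genes tested. Matches are in capitals, with E2F matches on the opposite strand.
Ect2 (chr3:27153879-27154018, - strand): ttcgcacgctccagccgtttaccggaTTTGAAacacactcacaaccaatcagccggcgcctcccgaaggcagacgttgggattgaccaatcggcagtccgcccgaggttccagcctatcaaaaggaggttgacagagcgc
Prc1 (chr7:80294336-80294475, + strand): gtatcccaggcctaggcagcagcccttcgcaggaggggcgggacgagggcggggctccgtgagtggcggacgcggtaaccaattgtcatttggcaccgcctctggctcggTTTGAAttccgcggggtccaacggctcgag
Gins3 (chr8:95633419-95633558, + strand): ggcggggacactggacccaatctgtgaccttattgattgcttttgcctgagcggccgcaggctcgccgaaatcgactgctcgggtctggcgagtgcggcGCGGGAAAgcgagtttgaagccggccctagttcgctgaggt
Pola1 (chrX:93632156-93632295, - strand): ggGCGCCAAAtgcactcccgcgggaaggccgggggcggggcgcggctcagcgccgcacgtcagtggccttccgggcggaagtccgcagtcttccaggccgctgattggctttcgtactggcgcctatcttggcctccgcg

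Prc1 bundles the microtubules of the dividing cell, Gins3 is a helicase subunit and Pola1 the catalytic subunit of the polymerase that starts DNA strands. Their differences, picked by sequence and size among called members, were −1.01, −0.94 and −0.93. A call was thus a condition for being shown. The same match occurred in windows of members that were not called, such as Mcm6 for E2F (difference −1.55) and Ttk for the cell cycle homology region (−0.50).

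Among D cyclins and inhibitors of cyclin-dependent kinases, 3 of 9 measured members (10 listed) were higher and none was lower. That is 33.3% higher, against 12.6% of all genes tested. Cdkn2b stood at −1.03 and −1.71 against −5.12, a difference of 3.75 (SE 0.29, adjusted p = 0.000886), and Cdkn1a, which encodes p21, at 0.14 and −0.53 against −3.35, a difference of 3.15 (adjusted p = 0.006). Ccnd3, a D cyclin, was higher by 1.12, but its call was lost without CD24 low replicate 1 (adjusted p = 0.0759) or without either CD24 medium array (0.0565). Other settings also ended the call of Ccnd3, among them the slide as a term (adjusted p = 0.0579), processed signals (0.0923) and an offset of 16 (0.0559). Cdkn1b and Cdkn2c had differences of −0.66 and −0.82 and were not called.

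Ribosome biogenesis genes, which build ribosomes in the nucleolus, were lower for 13 of 37 members and higher for 1, with a median of −0.64. These shares, 35.1% and 2.7%, compare with 10.9% and 12.6% of all genes tested. Wdr12, needed to mature the large subunit, differed by −1.66 (adjusted p = 0.006) with further probes from −1.09 to −0.25. Wdr43 and the box H/ACA proteins Nop10 and Nhp2 differed by −1.40, −1.29 and −1.28, and a further probe of Wdr43 gave 0.01. The count of lower genes was 6 without CD24 low replicate 2 and 1 with the slide as a term. Genes of cholesterol and fatty acid synthesis were higher for 9 of 21 members and lower for none, with a median of 0.92. That is 42.9% higher, against 12.6% of all genes tested. The enzymes Fdft1, Fdps and Acly were higher by 1.82, 1.73 and 1.71. A further probe of Fdps gave 0.68, and the call of Acly was lost with the slide as a term (adjusted p = 0.055). With the scanner's processed signals 5 members were higher.

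Products of other secretory cell types were described by the same lists. Enteroendocrine genes were higher for 10 of 27 measured members (32 listed) and lower for none, with a median of 1.81. The share higher was 37%, against 12.6% of all genes tested. Sct, the hormone secretin, had levels of 2.06 and 2.00 against −3.12, a difference of 5.15 (SE 0.32, adjusted p = 0.000467). Gcg, the precursor of glucagon-like peptides, stood at 0.54 and 3.22 against −2.99 (difference 4.87, adjusted p = 0.0306), with CD24 low replicate 2 well above replicate 1. Cck, the hormone cholecystokinin, stood at 2.20 and 3.94 against −1.45, and Chgb, a granule protein, at 1.56 and 3.45 against −1.96.

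In Gcg, Cck and Chgb replicate 2 was the higher of the CD24 low arrays. The count of higher enteroendocrine genes was 4 without CD24 low replicate 2, 6 without either CD24 high array and 1 with the slide as a term. The call of Gcg was lost without CD24 low replicate 2 (adjusted p = 0.0592) and without either CD24 high array (0.0545).

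Of 19 listed Paneth genes 11 were measured, with 2 higher, 1 lower and a median of 0.15 that turned negative under 4 settings. Those shares, 18.2% and 9.09%, lie near the 12.6% and 10.9% of all genes tested. Mmp7, the protease that activates defensins, stood at −0.10 and −0.06 against −2.68 (difference 2.60, adjusted p = 0.000708), and Pla2g2a, an antibacterial phospholipase, was higher by 1.47. Defa20, an alpha-defensin, was lower, at −5.88 and −5.46 against −4.78 (difference −0.89, adjusted p = 0.0407). That call was lost without CD24 low replicate 1 (0.0857), without either CD24 high array (0.0529) and without either CD24 medium array (0.0739), and near-identical defensins can share a probe. Of 15 measured tuft cell genes (18 listed) 1 was higher (6.67%, against 12.6% of all genes tested), Avil by 1.19. The tuft median was 0.07. The tuft cell markers Dclk1 and Trpm5, named after their values were seen, had differences of −0.08 and −0.17.

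Enterocyte genes were higher for 15 of 27 measured members (28 listed) and lower for 1, with a median of 1.13. These shares, 55.6% and 3.7%, compare with 12.6% and 10.9% of all genes tested. The list's median level was −2.83 and −2.92 on the CD24 low arrays and −4.09 on the Lgr5 array, all far below the whole-intestine reference. Krt20, a keratin of mature epithelium, stood at −1.57 and −2.62 against −7.47 (difference 5.38, adjusted p = 0.000816). Npc1l1, Lct and Fabp2, which take up or digest nutrients, were higher by 2.10, 2.05 and 2.04, and the call of Lct was lost without CD24 low replicate 1 (adjusted p = 0.0778) or either CD24 medium array (0.0503). With the slide as a term 3 members were higher, and with the sample channel alone 7. The part of mature absorptive cells in the goblet result was not tested.

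Immune cell genes were higher for 4 of 20 measured members (23 listed), or 20%, against 12.6% of all genes tested, and their median level was −1.77 and −1.91 against −2.11. Jchain, the joining chain of secreted antibodies, differed by 2.04, and Ccl5, Tyrobp and Cd52 by 0.96, 0.80 and 0.78. Mesenchymal and endothelial genes were higher for 5 of 14 measured members (18 listed), or 35.7%, with median levels of −2.80 and −2.77 against −3.39. Acta2, Tagln, Col3a1 and Sparc differed by 1.47, 1.1, 1.02 and 0.87. Further probes of Acta2 ranged from 0.16 to 1.23, and those of Tagln and Sparc gave 0.57 and 0.97. Without CD24 low replicate 2 these counts were 1 and 2, and with the slide as a term both were 0. With the sample channel alone 0 immune genes were higher and 2 lower, and 1 mesenchymal gene was higher. Among defining markers, Ptprc, Pdgfra, Cdh5 and Kdr were well above background on none of the 3 arrays. Cd3g and Pecam1 were on 1 CD24 low array each and not on the Lgr5 array. The red cell gene Hbb-bt was lower, at −4.50 and −4.34 against −2.19, with the other 3 measured globin and haem genes not called. The part of these cells in the other differences was not tested.

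Immediate-early genes, which respond rapidly to growth factors and to the dissociation of tissue, were higher for 16 of 19 measured members (20 listed), with a median difference of 2.73. The share higher was 84.2%, against 12.6% of all genes tested. Atf3 stood at 3.23 and 4.19 against −1.38 (difference 5.09, adjusted p = 0.000869), and Nr4a1 at 2.38 and 3.33 against −2.14 (difference 5.0). Fos stood at 1.82 and 2.00 against −2.12 (adjusted p = 0.024), and Egr1 at 3.19 and 3.30 against −0.75 (adjusted p = 0.0112). Without CD24 low replicate 2 the count was 10 and the call of Fos was lost (adjusted p = 0.0649). The heat shock genes Hspa1a and Hspa1b had differences of 0.19 and 0.15 and were not called. The medians of this list on the 3 arrays were 2.43 and 2.75 against −0.84, so it moved with the same groups as the goblet, ER and cell cycle lists, and its part in those results was not tested.

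Genes of the sex chromosomes moved with the mouse line too. Eif2s3y, a Y-linked gene, stood at −0.02 and −0.10 in CD24 low cells and 4.99 in Lgr5 cells. It was not well above background on either CD24 low array, and the adjusted p by limma was 0.000287. With dim arrays raised to their detection level where below it, it was at least 14.5-fold lower there in the sample channel. Y-linked Ddx3y and Kdm5d, also not well above background on either CD24 low array, were at least 5.01-fold and 2.28-fold lower by the same measure. Xist, the RNA of the inactive X chromosome, stood at 0.27 and 0.60 against −1.22 (adjusted p = 0.00438). Kdm5d and Xist were chosen after their values were seen. All 6 Dll1 arrays had Eif2s3y levels between −0.20 and 0.13. The labels give no sex, and its part in the other differences was not tested.

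**Figure D5:**
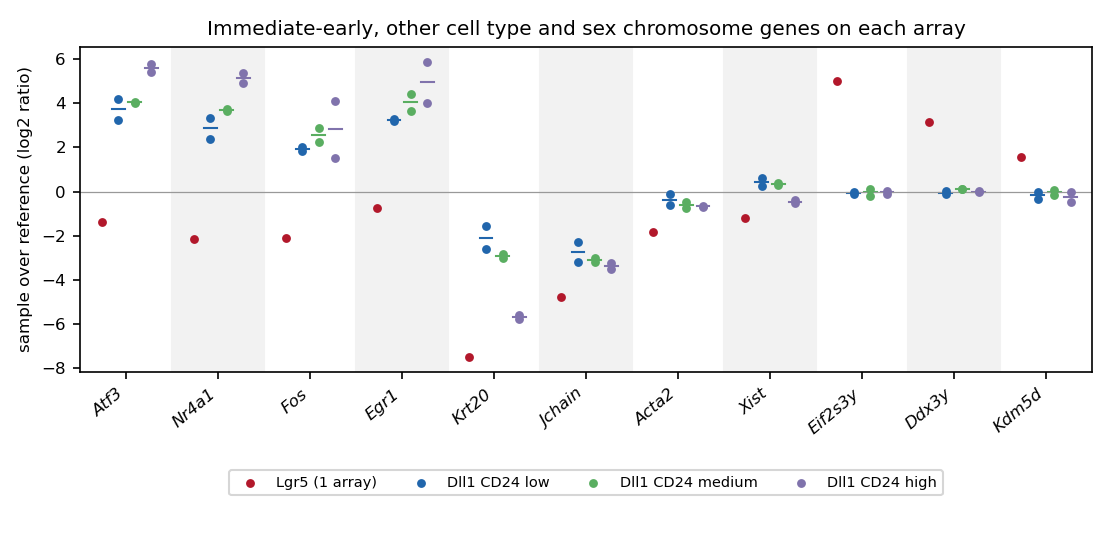
Level of 11 immediate-early, other cell type and sex chromosome genes (x axis) as the log2 ratio of sample over reference (y axis) on each array. Points are arrays and short bars means of the 2 replicates; the Lgr5 array lies lowest of the 7 from Atf3 to Xist and highest for Eif2s3y (4.99), Ddx3y and Kdm5d.

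The other CD24 levels, which are not independent of the comparison above since all share the Lgr5 array or the CD24 low arrays, show where CD24 low cells differ from other Dll1 cells. Between CD24 low and CD24 medium cells 0 of 17050 genes were higher in CD24 low (0%), with 919 at an unadjusted p under 0.05 and a smallest adjusted p of 0.0798 by limma. Lower were 17 genes (0.0997%), with 886 at an unadjusted p under 0.05. They are Gip, several alpha-defensins including Defa20, Lyz1, Itln1, Svep1, Npff, Spon2, Cd24a and others. Cd24a is the gene of the gate.

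No goblet, ER, stem cell, cell cycle or immediate-early gene of the lists passed in that comparison. Clca1 stood at 2.62 and 0.61 and Muc2 at 2.12 and 1.38 in CD24 medium cells, close to or below their CD24 low levels. Without CD24 low replicate 2, 38 genes were called, 12 of them higher in CD24 low.

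Against CD24 high cells 1205 genes were higher in CD24 low cells (7.07%) and 1804 lower (10.6%). Of the 22 goblet genes 11 were higher and 5 lower there. Clca1, Zg16 and Fcgbp differed between CD24 low and high by 6.66, 5.50 and 4.11 (adjusted p = 0.0137, 0.00231 and 0.000222), whereas Muc2 and Spdef differed by 0.16 and 0.05 and were not called. Of the ER lists, 11 of 35 folding genes and 17 of 40 export genes were lower in CD24 low than in CD24 high cells, and 3 and 1 were higher. All 11 measured Paneth genes were lower, and the difference of Defa20 was −10.93.

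Of the G2 and mitosis genes 28 of 36, and of the replication genes 22 of 41, were higher in CD24 low than in CD24 high cells. Over all genes tested 7.07% were higher in that comparison and 10.6% lower. Mki67 differed by 2.72 there (adjusted p = 0.00107). Lgr5 stood at 1.36 and 1.30 in CD24 high cells, between the CD24 low levels and the Lgr5 array, and differed by −2.32 from CD24 low. Of the immediate-early genes 10 were lower in CD24 low than in CD24 high cells and none was higher. Leaving out CD24 high replicate 1 or 2 or CD24 low replicate 2 brought the total of 3009 genes down to 1808, 1669 and 1656.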

How the data were processed

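Per the file headers, spot and background intensity of both channels was extracted from each 4x44K array by the submitters with Agilent Feature Extraction 10.5.1.1. The deposited series matrix holds log10 ratios, equal to the files' ratio column with its sign turned (largest difference 5e-06), hence sample over reference. Mean signals of the 45018 spots (43379 for genes) were corrected with normexp (offset 50) and normalised by loess (span 0.3) in limma 3.58.1 under R 4.3.3 and the data.table package (version 1.17.8); control spots had no weight and outlier spots of either channel were left out. A probe entered the comparison if its sample channel was well above background on the Lgr5 array or on both CD24 low arrays, which left 24091 of 41174 probes and 17050 genes with values on all 3 arrays. The brightest probe stood for a gene. RefSeq accessions gave current symbols for 26918 probes, and the symbol in the array file was used for the remaining 14256.

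One mean per group was fitted over all 7 arrays (3 residual and 3.63 prior degrees of freedom), with Benjamini-Hochberg adjustment of p-values. On simulated data with 17050 genes for CD24 low against Lgr5, 13 of 100 genes changed by 1 (log2) and 96 of 100 changed by 2 were recovered, with 9 unchanged genes called. Named were the 12 largest called differences each way with a bright group well above background, up to 4 called members of each list (2 where none was called), and 9 set genes. The lists, the rule for named genes and the comparison were chosen with earlier results of these data known. A p-value here sets a difference against the spread within the pairs of Dll1 arrays, to which the single Lgr5 array adds none. Probe coordinates are those of the array files (mm9), promoters those of RefSeq (GRCm38.p6). Plots used matplotlib 3.10.9 and Python 3.11.15. Other background corrections, scalings, filters, probe rules, covariates and the loss of each Dll1 array were tried as alternatives. For CD24 low against Lgr5, losing either array of a CD24 medium or CD24 high pair gives the same result. The difference stays as it was, and that pair no longer adds to the spread.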

Additional observations from a re-analysis of the deposited data

How the results depend on the processing

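Genes called higher and lower in CD24 low than in Lgr5 cells numbered 2154 and 1852. With the slide as a term they were 997 and 536. Lower genes were 919 with the CD24 low and Lgr5 arrays alone and 1080 with a minimum difference of 1. Leaving out 1 Dll1 array gave 1551 to 2472 higher and 1059 to 1721 lower genes, the lowest of both without CD24 low replicate 2. A replicate block, with the numbers of the Dll1 arrays as a term, gave 2614 and 2159; same-numbered arrays were not shown to be paired (correlations of their deviations 0.265, −0.0655 and 0.458), and the Lgr5 array has no number. The median of all genes was 0.08, and −0.04 with the scanner's processed signals.

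The counts against CD24 medium and CD24 high were recomputed with the same alternatives, chosen after seeing the data. Against CD24 medium, 17 genes were called, 29 without background subtraction, 10 with an offset of 16, and 9 to 38 with 1 array left out. Against CD24 high, 3009 were called, 4850 without background subtraction, 5400 with processed signals, 5397 with the series matrix, 1704 with the minimum difference, and 1656 to 3310 with 1 array left out.

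The Paneth median of 0.15 became −0.18 with processed signals and with the series matrix, −0.39 with the sample channel alone and −0.33 with the slide as a term. The tuft median became −0.10 with the sample channel alone. The difference of Mki67 became −0.0505 with processed signals and with the matrix, −0.43 with the sample channel alone, −0.0297 without CD24 low replicate 1 and 0.17 without replicate 2. In each case the cause was not tested. Of 94 named genes that were called, 64 kept their call in every alternative and left-out array. The slide as a term ended 22 named calls, processed signals 17 and the sample channel alone 12. The immune and mesenchymal medians were 0.08 and 0.15 with the sample channel alone.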

Other observations

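Groups outside the fixed lists were picked after their values were seen and are given as values. Several genes induced by interferon were higher in CD24 low cells. Zbp1, a sensor of foreign nucleic acid, stood at 0.96 and 1.13 against −2.63 in Lgr5 cells (difference 3.68, adjusted p = 0.00208 by limma), and Oasl1 at 0.68 and 0.66 against −2.74 (difference 3.41). Irf7, the factor that amplifies the interferon response, stood at 1.55 and 2.72 against −1.88 (adjusted p = 0.0259), and Isg15 at −0.45 and 1.13 against −3.08 (0.032). Ifit3 had a difference of 0.96 and was not called. The replicates of Irf7 and Isg15 lay further apart than those of Zbp1 and Oasl1.

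Some enzymes of nitrogen metabolism were lower in CD24 low than in Lgr5 cells. Otc, the urea cycle enzyme after Cps1, stood at 0.90 against −1.68 and −1.91 in CD24 low cells (difference −2.69, adjusted p = 0.00103). Ppat and Paics, enzymes of purine synthesis, had differences of −2.45 and −2.11 and further probes at −0.92 and −0.62, while Gart and Atic of the same pathway had differences of 0.09 and −0.21 and were not called. Myb, a transcription factor of dividing progenitors, stood at 3.31 against 0.92 and 0.74 (difference −2.48), with further probes from −2.66 to −0.49. The kallikrein genes of a cluster on chromosome 7, Klk1b3, Klk1b4, Klk1b8 and Egfbp2, were higher in CD24 low cells by 4.37, 4.26, 4.13 and 4.05. Their sequences are near identical, so their probes may share signal with Klk1, which was higher by 4.11.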
